A study of Homo sapiens with 121 samples.

Results

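The spliceosome genes described here were the 50 rows of a single-cell expression table whose symbols start with SNRP, LSM, SF3A, SF3B or PRPF and hold no hyphen, out of 25610 genes read. They code for proteins of the small nuclear ribonucleoproteins (snRNPs), for LSM proteins, for the SF3A and SF3B complexes and for the PRPF splicing factors. All 50 were above 0 in at least 1 cell, 44 had a mean of 10 or more transcripts per 1e6 transcripts (TPM) and are called abundant here, and 14 were detected, that is above TPM 1, in every cell. The 6 genes that were not abundant were LSM11, LSM14B, PRPF40B, LSMEM1, LSMEM2 and SNRPD2P2. By their names, LSMEM1 and LSMEM2 code for membrane proteins and not for spliceosome proteins, and SNRPD2P2 is a pseudogene that was detected in no cell.

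The cells were 121 single human embryonic stem cells (hESCs) of the line WA26, an established line kept undifferentiated in E8 medium on Matrigel, with Rocki, a ROCK inhibitor, added at passaging and no other treatment named. In scT&R-seq, polyadenylated RNA and genomic DNA of 1 cell are separated, so that gene expression and telomere length come from the same cell. Telomere length is given as the T/R ratio, the qPCR signal of telomere repeats (T) over that of Alu repeats (R). By their labels, 81 were long telomere cells, 25 were medium telomere cells and 15 were short telomere cells, with limits at T/R ratios of 1 and 0.4 in the methods. No culture, passage or batch is named for a cell, so each telomere group counted as 1 sample, no test between groups was possible, and all values below describe these cells.

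Introns are removed from pre-mRNA by the spliceosome, which is built from snRNPs and accompanying proteins. The Sm proteins form a ring around the snRNA of the U1, U2, U4 and U5 snRNPs, and the related LSM proteins form a ring on U6 snRNA in the nucleus and another in the cytoplasm that takes part in mRNA decay. SF3A and SF3B belong to the U2 snRNP, which recognizes the branch site of an intron, and PRPF proteins act in the U4/U6.U5 tri-snRNP and at other steps. The study picked SNRPD2, which codes for the Sm protein SmD2, from these same cells as a gene with a negative relation to telomere length, so its own values are a description, and the question was whether the other genes of the machinery shared that relation.

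The telomere groups differed in the number of detected genes. Long telomere cells had 4002 to 11515 detected genes with a median of 9165, medium telomere cells 4189 to 10481 with a median of 8626, and short telomere cells 2030 to 10045 with a median of 5620. The 68 cells above 8000 detected genes, called gene-rich here, comprised 51 long, 14 medium and 3 short telomere cells. The 53 gene-poor cells comprised 30, 11 and 12. Results are also given within these sets. Markers of undifferentiated hESCs (POU5F1, NANOG, SOX2, LIN28A, DNMT3B, ZFP42 and TDGF1) were each detected in 73.3% to 100% of the cells of every group, and their summed TPM ran from 798 to 3919 in long, from 816 to 3940 in medium and from 548 to 2658 in short telomere cells. The medians of that sum were 2801, 2381 and 1210 TPM, lowest in short telomere cells, and its r with the T/R ratio was 0.357. Of 8 markers of differentiated cells, GATA6 and HAND1 were at 0 in every cell and PAX6 was detected in 27.3%, and the 8 had a median sum of 0.3, 0.27 and 0 TPM per group in that order. Of 5 fibroblast markers, COL3A1 and LUM were detected in no cell and COL1A2 in 63.6%, and the summed TPM ranged from 0 to 162, from 0 to 56.4 and from 0 to 195. The part of these differences in the results below was not tested. Values within a set of cells or given the number of detected genes are stated beside some results.

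The negative relation of SNRPD2 was not general among the spliceosome genes. Pearson's r between TPM and the T/R ratio lay below 0 for 14 of the 50 genes, against 48.8% of the 21080 genes above 0 in at least 1 cell, and above 0 for 36. The median r was 0.0395, beside 0.00339 over all genes. Of the 44 abundant ones, 13 were below 0, against 37.7% of the 6213 abundant genes of the table. The median r of these 44 was 0.0373, close to the 0.0422 over the 6213 abundant genes. As deposited, only SNRPD2 (-0.289) and SNRPF (-0.204) reached -0.2 or lower, as 2.01% of all and 2.09% of abundant genes did. At 0.2 or higher there were 7 genes, SF3B3, SNRPA1, LSM2, SNRPN, LSM4, SF3A3 and PRPF4B, and the same held for 5.91% of all and 11.7% of abundant genes. With cells divided by the median ratio over 602 genes above 0 in every cell, SF3B3 and PRPF4B no longer reached that limit, at 0.0833 and 0.169, and the other 5 genes did, where 7.89% of abundant genes reached it. On that scale 6 of the 44 were at -0.2 or lower, where 4.80% of abundant genes were. These were SNRPD2, SNRPD3, SNRPE, SNRPF, SNRPG and LSM7. Among gene-rich cells 21 of the 44 were below 0, where 44.2% of abundant genes were, and among gene-poor cells 12 were, where 39.8% were. With cells divided by the median ratio, 23 of the 44 lay below 0 where 53.0% of abundant genes did, so the balance of signs shifted for spliceosome genes and for abundant genes as a whole.

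**Figure D1:**
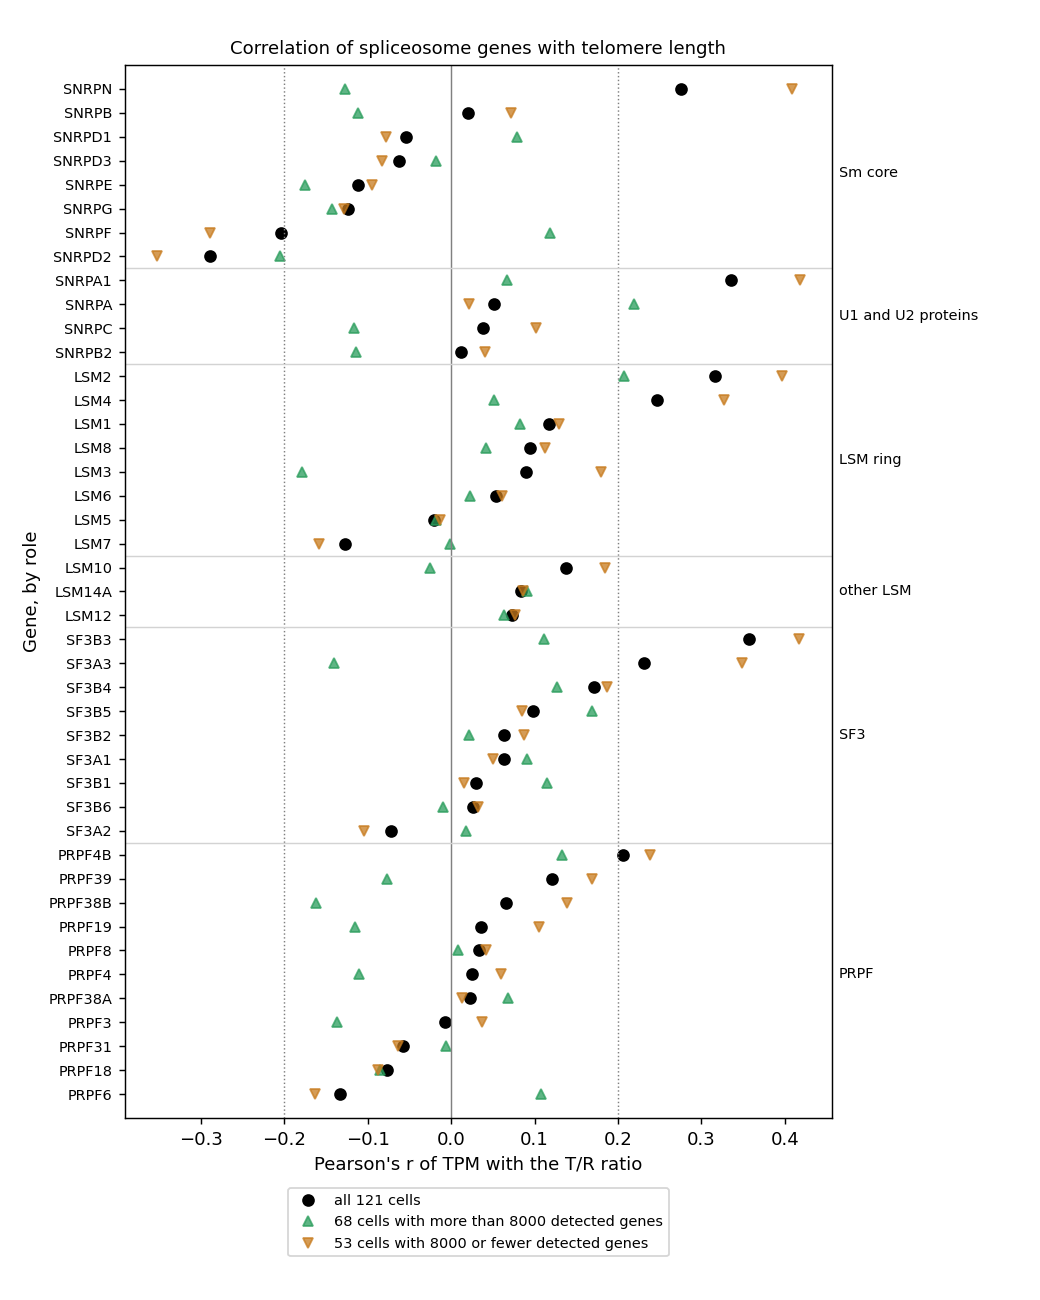
Pearson's r of TPM with the T/R ratio for 43 of the 44 abundant spliceosome genes, grouped by role, over all 121 cells (black), the 68 gene-rich cells above 8000 detected genes (green) and the 53 gene-poor cells (orange); dotted lines mark -0.2 and 0.2. SNRPD2 and SNRPF hold the lowest values over all cells, and most genes right of 0.2 over all cells lie left of it in gene-rich cells. Divided by the median ratio, 23 of all 44 genes were below 0, where 53.0% of abundant genes were.

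SNRPD2 was detected in every cell. Its TPM ran from 365 to 3027 in long telomere cells with a median of 1126, from 325 to 3755 in medium telomere cells with a median of 1370, and from 605 to 6482 in short telomere cells with a median of 1721. The groups overlapped widely, and the short telomere cells reached highest. Means were 1267 ± 514 (SD, n = 81 cells), 1606 ± 772 (n = 25) and 2495 ± 1809 (n = 15). On the log2(TPM + 1) scale the means were 10.21 ± 0.53, 10.49 ± 0.71 and 10.94 ± 1.03, a long minus short difference of -0.74, which was smaller than the SD within the short group, and the long telomere cell was the higher one in 27.5% of long-short pairs.

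The correlation of SNRPD2 with the T/R ratio over 121 cells was -0.289, with Spearman's rho of -0.263, and its r was the 4th lowest of all genes. Leaving out the 2 cells with the most extreme T/R ratios relative to the median gave -0.323. SNRPD2 was also lower in cells with more detected genes, with r of -0.517 between its log2 level and that number. The partial correlation of its TPM with the T/R ratio given that number was -0.302. It takes out a straight-line relation only, so it does not hold the number of detected genes constant. In gene-rich cells r was -0.205 and in gene-poor cells -0.353. Within the groups r was 0.112 among long, -0.499 among medium and -0.157 among short telomere cells.

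The direction of the group difference depended on the set of cells. In gene-rich cells, SNRPD2 averaged 1062 ± 270 TPM over 51 long telomere cells, 1307 ± 382 over 14 medium ones and 841 ± 219 over 3 short ones, and long minus short was 0.33. In gene-poor cells, it averaged 1617 ± 633 over 30 long, 1988 ± 978 over 11 medium and 2909 ± 1796 over 12 short ones, and long minus short was -0.72. The 3 gene-rich short telomere cells lay at 605, 880 and 1038 TPM, all within the range of the long telomere cells. The 10 cells with the highest SNRPD2, between 2768 and 6482 TPM, were 2 long, 2 medium and 6 short telomere cells, and all 10 were gene-poor.

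**Figure D2:**
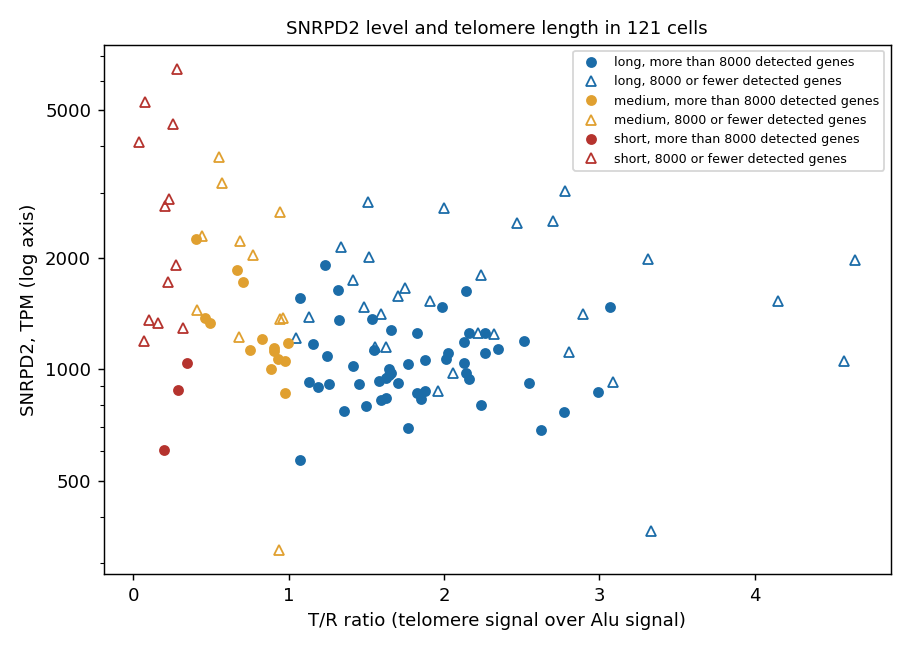
SNRPD2 level in TPM (log axis) against the T/R ratio in 121 cells, colored by telomere group; filled circles are gene-rich cells (above 8000 detected genes) and open triangles are gene-poor cells. The 10 highest cells are all open triangles, 6 of them short telomere cells, and the 3 filled short telomere cells lie between 605 and 1038 TPM.

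SNRPD2 lies at chr19:46190718-46195827 of GRCh37, on the minus strand, and overlaps QPCTL. Of the 466 windows of 50 bases, the length of a read, in its annotated transcript, 9 (1.93%) also occur in the transcript of another gene, the pseudogene SNRPD2P1. Whether strand was used in counting is not given in the sources used here, so reads of overlapping genes on opposite strands may not be told apart.

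Among the 8 Sm core genes, 6 had r below 0, where 37.7% of abundant genes did, and the median was -0.0875, and with cells divided by the median ratio 7 were below 0, where 53.0% of abundant genes were, 5 of them at -0.2 or lower (SNRPD2, SNRPD3, SNRPE, SNRPF and SNRPG), where 4.80% of abundant genes were. As deposited, r was -0.204 for SNRPF, -0.123 for SNRPG, -0.112 for SNRPE, -0.0631 for SNRPD3 and -0.0539 for SNRPD1, and it was 0.0198 for SNRPB and 0.276 for SNRPN. These code for SmF, SmG, SmE, SmD3, SmD1, SmB and SmN, the ring partners of SmD2, with SmN a close relative that takes the place of SmB. By ranks SNRPD3 was on the other side of 0, with rho of 0.0325, and SNRPF and SNRPG had rho of -0.116 and -0.148.

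The negative r of SNRPF was not seen in gene-rich cells. Its TPM ran from 369 to 1954 in long telomere cells with a median of 976, from 516 to 2223 in medium telomere cells with a median of 975, and from 26.6 to 2573 in short telomere cells with a median of 999. The medians lay close together, and the short telomere cells spread both lower and higher than the others. Its r was 0.119 in gene-rich and -0.289 in gene-poor cells, and SNRPF shares 12.4% of its 50-base windows with the pseudogene SNRPFP1.

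SNRPG had the highest mean of the 50 genes, 1983 TPM. It ranged from 708 to 4684 with a median of 1664 in long, from 1276 to 4546 with a median of 1808 in medium and from 25.8 to 6587 with a median of 1779 in short telomere cells. The groups again overlapped, and its r was -0.143 in gene-rich and -0.128 in gene-poor cells. SNRPE ranged from 3.27 to 1310 with a median of 603 in long, from 332 to 1508 with a median of 626 in medium and from 1.08 to 1646 with a median of 602 in short telomere cells. Its r was -0.176 and -0.0946 in these sets. Other genes, the pseudogenes SNRPGP10 and SNRPEP4 among them, share 24.2% of the windows of SNRPG and 12.5% of those of SNRPE.

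SNRPD1 ran from 278 to 1583 TPM with a median of 590 in long, from 363 to 926 with a median of 625 in medium and from 12.6 to 2674 with a median of 584 in short telomere cells. SNRPD3, the lowest of the 8, ran from 4.2 to 373 with a median of 187, from 109 to 367 with a median of 174 and from 4.68 to 398 with a median of 148. SNRPB ran from 6.51 to 1516 with a median of 435, from 122 to 1853 with a median of 458 and from 24.7 to 2607 with a median of 380. In all 3 genes the short telomere cells reached from near or below the lower end of the long telomere cells to above their upper end.

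SNRPN went the other way. It ran from 276 to 4012 TPM with a median of 705 in long, from 168 to 2121 with a median of 752 in medium and from 40.8 to 2150 with a median of 546 in short telomere cells. Its r with the T/R ratio was -0.128 in gene-rich and 0.409 in gene-poor cells, where the medians were 1224 in 30 long and 266 in 12 short telomere cells. SNRPN shares a transcript with SNURF, and 70.6% of its windows of 50 bases also occur in transcripts of other genes, SNURF above all. The rows of SNRPN and SNURF had r of 0.998 with each other over 121 cells and mean TPM of 882 and 927, so they cannot be told apart as separate measurements.

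**Figure D3:**
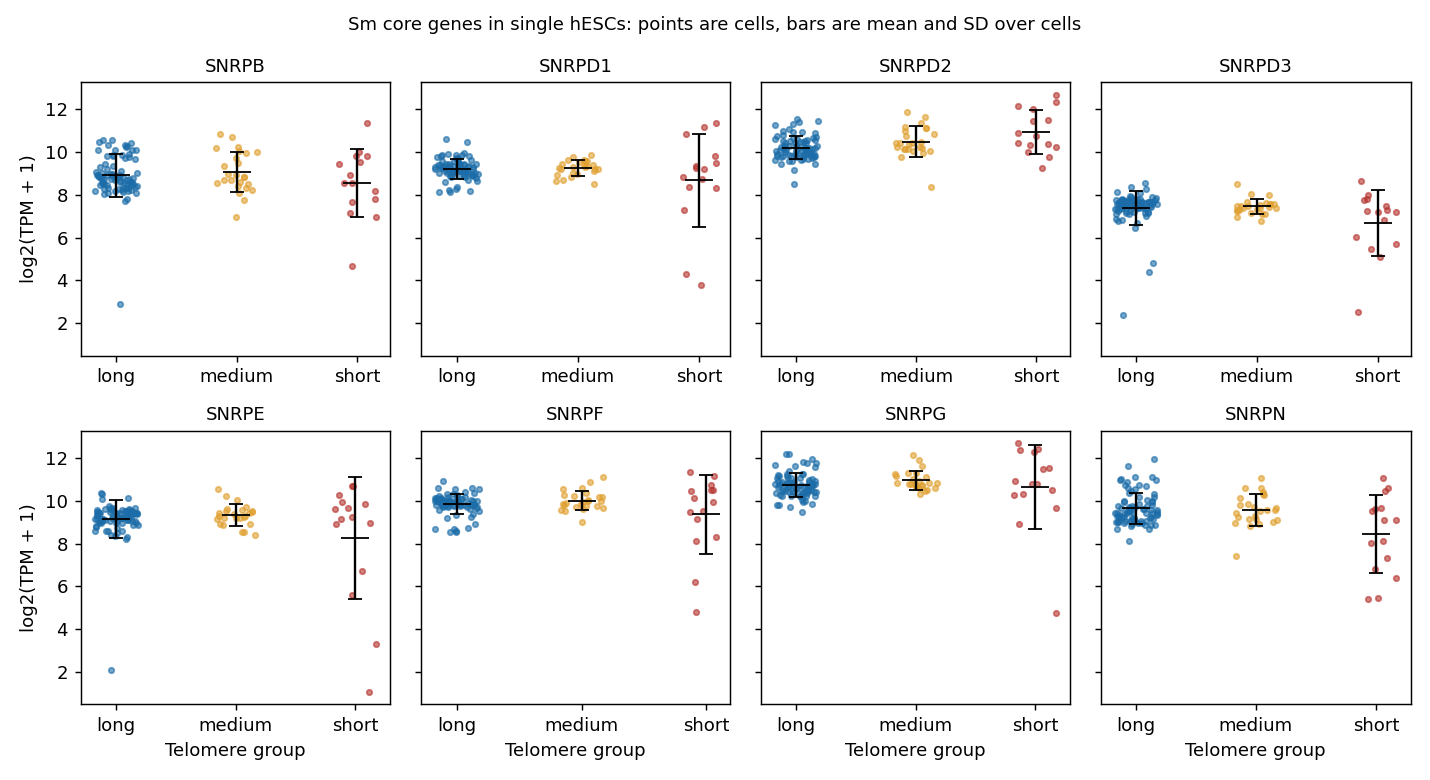
Level of the 8 Sm core genes as log2(TPM + 1) in 81 long, 25 medium and 15 short telomere cells; points are cells and bars are the mean and SD over cells. As deposited, SNRPD2 alone has its lowest mean in long and its highest in short telomere cells, and for the other genes single short telomere cells lie far below most cells, as does a long telomere cell for SNRPB, SNRPD3 and SNRPE; divided by the median ratio, SNRPB, SNRPD1, SNRPD3, SNRPF and SNRPG are lower in long too.

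Within single groups the Sm core genes shared a sign among medium telomere cells. All 8 had r below 0 there, with a median of -0.305, over 25 cells, where 42.9% of abundant genes were below 0. Of the 44 abundant spliceosome genes, 31 were below 0 among medium telomere cells, 16 among long telomere cells, where 49.8% of genes were, and 22 among short telomere cells, where 27.4% were. Among long telomere cells 3 of the 8 Sm core genes were below 0 and their median was 0.129. Among short telomere cells 6 were, with a median of -0.144 over only 15 cells.

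The share of each gene in the summed TPM of the 8 Sm core genes is not changed by the scaling of a cell. Long telomere cells had 18.0% ± 4.23 of the sum (SD over cells) in SNRPD2, medium telomere cells 20.2% ± 5.48 and short telomere cells 30.1% ± 21.9. The shares ran from 9.50% to 33.8% in long, from 3.92% to 34.0% in medium and from 7.05% to 95.0% in short telomere cells, and the group medians were 17.3%, 19.6% and 21.8%. The mean of the short telomere cells thus lay well above their median, and the long minus short difference was -12.1 percentage points by means and -4.59 by medians. In gene-rich cells the share was 17.2% in long and 14.8% in short telomere cells, a difference of 2.40 points in the opposite direction, and gene-poor cells had shares of 19.3% and 33.9%.

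The share of SNRPN was 12.8% ± 5.58, 11.1% ± 4.30 and 7.46% ± 6.36 in the same order, and the r of this share with the T/R ratio was 0.403. Among gene-rich cells its shares in long and short telomere cells were 11.1% and 10.8%. SNRPG had 25.8% ± 5.29, 26.7% ± 4.52 and 25.6% ± 11.1. SNRPG was the highest of the 8 in 95 of 121 cells, SNRPD2 in 19, SNRPN in 4 and SNRPF in 3. SNRPD2 led in 8 long, 6 medium and 5 short telomere cells.

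**Figure D4:**
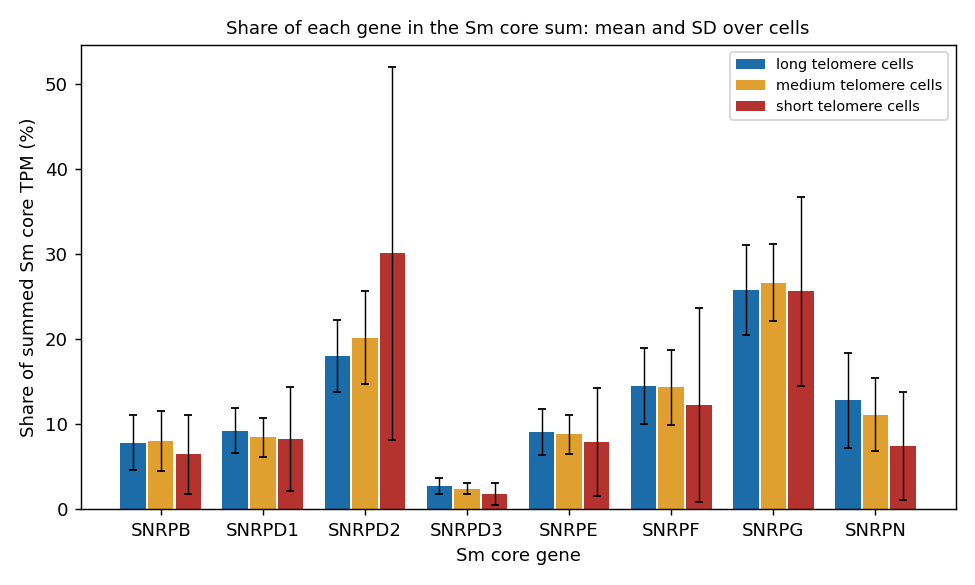
Share in percent of each Sm core gene in the summed TPM of the 8 genes, as mean (bars) and SD over cells (lines) in long, medium and short telomere cells. SNRPD2 has a mean share of 18.0% in long and 30.1% in short telomere cells with an SD of 21.9 in the latter, and SNRPN has 12.8% and 7.46%.

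The Sm core summed to 7009 ± 2064 TPM in long telomere cells, 7789 ± 2194 in medium and 9021 ± 4458 in short ones. It ran from 2328 to 12955, from 5258 to 14168 and from 3604 to 16862, so the groups overlapped. Its r with the T/R ratio was -0.138, and long minus short was -0.26 on the log2 scale as deposited, 0.11 in gene-rich cells and -1.03 with cells divided by the median ratio. The 9 SF3 genes summed to 1722 ± 387, 1742 ± 488 and 1231 ± 902, with long minus short of 0.87, and 0.11 with cells divided by the median ratio. The 8 genes of the LSM rings summed to 2459 ± 935, 2559 ± 1138 and 2635 ± 1738, and the 13 PRPF genes to 386 ± 114, 401 ± 115 and 417 ± 402. Their log2 differences, long minus short, were 0.32 and 0.55, the opposite direction from these means of TPM, and -0.44 and -0.21 with cells divided by the median ratio. All 50 genes summed to 13225 ± 3400, 14183 ± 3646 and 14676 ± 6471 TPM, with r of -0.0113.

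The proteins of the U1 and U2 snRNPs outside the Sm ring had no member with r below 0 as deposited, where 37.7% of abundant genes were below 0. SNRPA and SNRPC were below 0 with cells divided by the median ratio, at -0.0864 and -0.106, where 53.0% of abundant genes were. In gene-rich cells 2 of the 4 were below 0 as deposited, SNRPC at -0.116 and SNRPB2 at -0.114, where 44.2% of abundant genes were. SNRPA and SNRPC of the U1 snRNP had r of 0.0516 and 0.0385, and SNRPB2 and SNRPA1 of the U2 snRNP had 0.0115 and 0.336, the latter with rho of 0.340 and the former with rho of -0.0415. SNRPA1 ran from 2.36 to 1611 TPM with a median of 469 in long, from 99.7 to 1015 with a median of 345 in medium and from 1.78 to 861 with a median of 76.7 in short telomere cells. Short telomere cells were mostly low, though the 3 gene-rich ones held 492, 510 and 526 TPM, within the range of the long telomere cells. The r of SNRPA1 was 0.0672 in gene-rich and 0.418 in gene-poor cells. SNRPA1 shares 41.6% of its windows with other genes, SNRPA1P1 among them.

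Of the LSM rings, LSM2 to LSM8 surround U6 snRNA, and in the cytoplasmic ring LSM1 replaces LSM8. Of the 8 genes, LSM7 (-0.128) and LSM5 (-0.0206) had r below 0, where 37.7% of abundant genes did. With cells divided by the median ratio LSM3, LSM6 and LSM8 joined them, where 53.0% of abundant genes were below 0, and LSM7 reached -0.234. LSM2 had the highest r of the 8, 0.317, with rho of 0.263, and r of 0.207 in gene-rich and 0.397 in gene-poor cells. It was the only gene of the 7 at 0.2 or higher that also reached 0.2 in gene-rich cells. LSM2 ran from 0.59 to 972 TPM with a median of 280 in long, from 0.51 to 432 with a median of 243 in medium and from 0 to 561 with a median of 25.2 in short telomere cells. It was detected in 78 of 81 long (96.3%, exact 95% interval 89.6 to 99.2), 23 of 25 medium (92.0%, 74.0 to 99.0) and 10 of 15 short telomere cells (66.7%, 38.4 to 88.2). These intervals cover counting error only. Short telomere cells had fewer detected genes in general, with a median of 5620 against 9165 in long ones. The share of all genes with intervals this far apart was not counted.

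LSM4 had r of 0.246 with rho of 0.143, and 0.0516 in gene-rich cells. Its TPM ran from 1.44 to 1059 with a median of 306 in long, from 69.4 to 823 with a median of 325 in medium and from 0 to 621 with a median of 160 in short telomere cells. LSM7 ran from 0 to 2508 with a median of 328 in long, from 159 to 2026 with a median of 340 in medium and from 29 to 3648 with a median of 384 in short telomere cells. As with SNRPD2, the highest cell of LSM7 was a short telomere cell, and its mean log2 level was lower in long than in short telomere cells, by a difference of -0.64. Among gene-rich cells that difference was 0.55 and r was -0.0012. LSM2, LSM4 and LSM7 shared no window of 50 bases with another gene.

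The other LSM genes include LSM10 and LSM11, which replace Sm proteins in the U7 snRNP of histone mRNA processing. LSM10 had r of 0.138 and the largest long minus short difference of the 50 genes. It ran from 0 to 674 TPM with a median of 87.8 in long, from 0.49 to 372 with a median of 98.6 in medium and from 0 to 165 with a median of 0 in short telomere cells. It was detected in 74 of 81 long (91.4%, 83.0 to 96.5) and 5 of 15 short telomere cells (33.3%, 11.8 to 61.6), and mean log2 levels were 5.89 ± 2.21 and 2.07 ± 3.10, a difference of 3.82 that was -0.23 in gene-rich cells. As for LSM2, short telomere cells had fewer detected genes in general. The share of all genes with detection this far apart was not counted, so this does not set LSM10 apart. LSM11 had r of -0.189 and a mean of only 1.66 TPM, and ran from 0 to 8.8 in long, from 0 to 4.07 in medium and from 0 to 30.8 in short telomere cells.

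Of the 9 SF3 genes, only SF3A2 had r below 0, at -0.0719, where 37.7% of abundant genes did. Divided by the median ratio SF3B1 and SF3B6 did as well, where 53.0% did. SF3B3, a large scaffold subunit of SF3B, had the highest r of the 50 genes as deposited, 0.357, with rho of 0.206, and 0.0833 with cells divided by the median ratio, where LSM2 and SNRPA1 were highest at 0.317 and 0.310. It ran from 0 to 203 TPM with a median of 15.9 in long, from 0 to 38.5 with a median of 16.0 in medium and from 0 to 44.9 with a median of 7.41 in short telomere cells. Groups overlapped, and r was 0.111 in gene-rich cells, where the 3 short telomere cells held 24.3 to 24.5 TPM and the median of 51 long telomere cells was 17.1. SF3A3 had r of 0.231, -0.140 in gene-rich and 0.349 in gene-poor cells. It ran from 0.5 to 543 with a median of 97.9 in long, from 1.06 to 291 with a median of 86.3 in medium and from 0 to 157 with a median of 25.5 in short telomere cells.

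Of the 13 PRPF genes, 4 had r below 0, where 37.7% of abundant genes did. They were PRPF6, PRPF18, PRPF31 and PRPF3, at -0.133, -0.0772, -0.0572 and -0.00747, and PRPF4 was also below 0 with cells divided by the median ratio. In gene-rich cells 8 of the 13 were below 0, with a median of -0.0774, where 44.2% of abundant genes were. PRPF8, at the catalytic center of the spliceosome, had 0.0329, and PRPF19, a ubiquitin ligase, had 0.0362. PRPF4B, a kinase, had the highest r of the 13, 0.206, with 0.133 in gene-rich cells. It ran from 0 to 98.2 TPM with a median of 18.5 in long, from 0.12 to 42.0 with a median of 17.2 in medium and from 0 to 27.1 with a median of 4.66 in short telomere cells. PRPF6, a tri-snRNP protein, had medians of 23.3, 20.4 and 21.2 TPM and maxima of 164, 85.4 and 884 in long, medium and short telomere cells. Its negative r thus sat beside near-equal medians, and its rho was 0.0335.

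Most spliceosome genes, like most genes of the table, had a higher mean level in long than in short telomere cells. Of the 50, 45 were higher in long telomere cells as deposited and 35 with cells divided by the median ratio, where 75.0% and 68.7% of all genes were higher on these scales. The median difference of mean log2(TPM + 1) was 1.05 over the 50 genes, beside 0.19 over all genes. Over the 44 abundant ones it was 1.18, beside 1.40 over the 6213 abundant genes of the table, of which 90.9% were higher in long telomere cells. Differences of 1 or more were found in 27 of the 50 genes and in 24.8% of all genes, and in 26 of the 44 and in 66.5% of abundant genes. As deposited no spliceosome gene was at -1 or lower, as 2.41% of all and 1.71% of abundant genes were. With cells divided by the median ratio SNRPD2, LSM7 and LSM11 were, at -1.50, -1.40 and -1.38, as 6.44% of all genes were. Dividing by the median ratio moved the median of the 6213 genes from 1.40 to 1.02 and left 31 of the 44 higher in long telomere cells, where 80.6% of abundant genes were. Rescaling without ribosomal protein genes moved that median to 1.53 and left 41 of the 44 higher, where 91.8% were; with that rescaling 15 of the 44 had r below 0, where 38.7% did.

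The 5 largest differences among the abundant spliceosome genes were those of LSM10 (3.82), LSM2 (3.52), SF3B5 (2.72), SF3B4 (2.60) and LSM1 (2.59). SF3B5, a small SF3B subunit, ran from 0 to 1081 TPM with a median of 293 in long, from 26.1 to 1098 with a median of 342 in medium and from 0 to 1006 with a median of 50.4 in short telomere cells. SF3B4, an SF3B subunit that binds pre-mRNA near the branch site, ran from 0.31 to 305 with a median of 90.6, from 0 to 233 with a median of 76.7 and from 0 to 221 with a median of 7.02. LSM1 ran from 0 to 343 with a median of 118, from 2.5 to 338 with a median of 132 and from 0 to 393 with a median of 22.4. In these 3 genes the short telomere cells included cells at 0 and cells above the median of the long telomere cells.

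The 5 lowest were those of SNRPD2 (-0.74), LSM7 (-0.64), PRPF6 (-0.17), SNRPG (0.08) and PRPF31 (0.13). PRPF31, which binds U4 snRNA in the tri-snRNP, ran from 0 to 297 TPM with a median of 27.1 in long, from 0.29 to 246 with a median of 54.2 in medium and from 0.08 to 540 with a median of 26.2 in short telomere cells. SNRPG and PRPF31 lay below 0 with cells divided by the median ratio, at -0.68 and -0.51. These 5 were picked as the lowest, so their place below the median of 1.40 over abundant genes follows from that choice. SNRPD2, LSM7, LSM11 and PRPF6 were the 4 genes with both r below 0 and a lower mean in long telomere cells. A difference larger than the SD of both groups was found for PRPF3, PRPF39 and LSM10 only. The share of all genes with such a difference was not counted, so this does not set these genes apart. In gene-rich cells their differences were 0.05, 0.34 and -0.23.

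**Figure D5:**
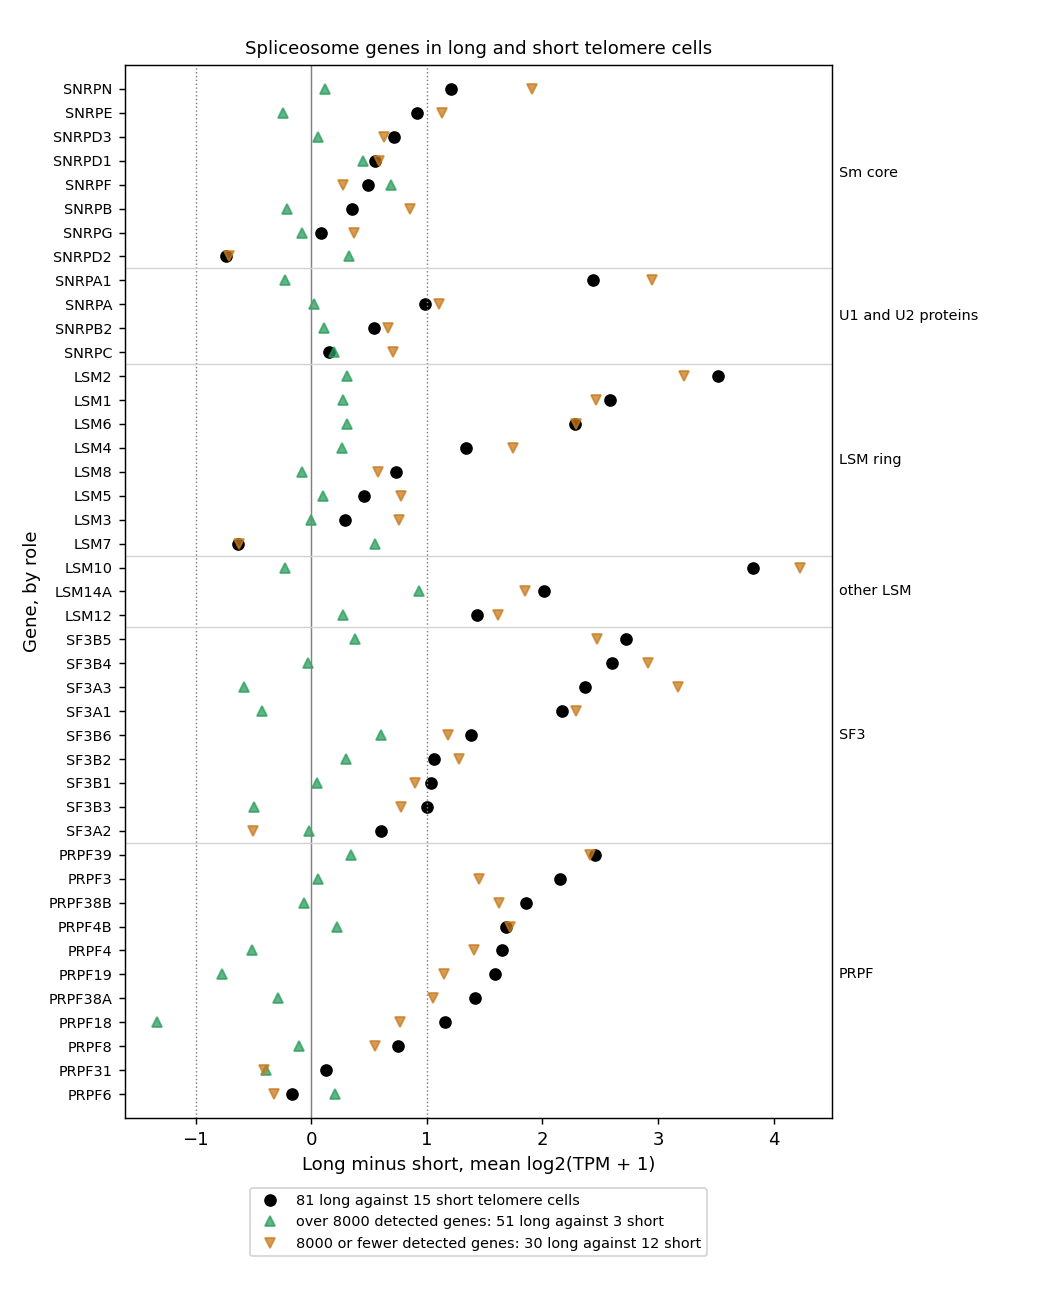
Long minus short difference of mean log2(TPM + 1) for 43 of the 44 abundant spliceosome genes, by role: 81 long against 15 short telomere cells (black), 51 against 3 gene-rich cells above 8000 detected genes (green) and 30 against 12 gene-poor cells (orange); dotted lines mark -1 and 1. As deposited 41 of all 44 genes were above 0, where 90.9% of abundant genes were. With cells divided by the median ratio 31 were, where 80.6% of abundant genes were. The green points scatter around 0, and the median of all 44 genes in gene-rich cells was 0.06.

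Among gene-rich cells 29 of the 50 had a higher mean in long telomere cells, with a median difference of 0.06. Of the 44 abundant ones 25 did, where 52.4% of abundant genes did. Only 3 short telomere cells stand behind that comparison. Among gene-poor cells 42 of the 50 were higher, and 39 of the 44, where 82.9% of abundant genes were, and the median of the 50 was 1.08. Medium telomere cells were close to long telomere cells. They were above long telomere cells for 25 of the 50 genes, as for 36.0% of all and 35.1% of abundant genes, and above short telomere cells for 43, as for 63.8% and 90.0%, with median differences of -0.01 for long minus medium and 1.12 for medium minus short.

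The other spliceosome genes were split in how they went with SNRPD2 across cells. Over 121 cells, Spearman's rho with SNRPD2 was above 0 for 18 of the other 43 abundant ones, against 19.4% of the other 6212 abundant genes of the table, with medians of -0.0145 and -0.206. In gene-rich cells it was above 0 for 32 of the 43, against 47.5%, with medians of 0.139 and -0.0119. In gene-poor cells it was above 0 for 17, against 29.8%, with medians of -0.0887 and -0.0936. The most alike were LSM7 (0.556), SNRPC (0.469), SNRPG (0.451), LSM3 (0.439) and SNRPB (0.402), and the least alike were SF3B3 (-0.375) and SF3A1 (-0.372). Among gene-rich cells the rho of the 5 most alike was 0.385, 0.307, 0.490, 0.365 and 0.245, and among gene-poor cells it was 0.491, 0.128, 0.197, 0.181 and 0.126. All values in a cell share 1 library. Like SNRPD2, these 5 genes (LSM7, SNRPC, SNRPG, LSM3 and SNRPB) had a negative r between their log2 level and the number of detected genes. These 5 were picked as the most alike, so the shared sign may follow from that choice. That r was negative for 11 of the 50 genes. Its share over all genes was not counted, so the count does not set the spliceosome genes apart. SNRPF, the other gene with r of -0.2 or lower, had rho of 0.0889 with SNRPD2.

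The 5 genes most like SNRPD2 among all abundant genes were no spliceosome genes. They were ATP5J2 (rho 0.695), which codes for a subunit of ATP synthase, TMA7 (0.687), NDUFA13 (0.661), a subunit of respiratory complex I, TIMM8B (0.641), of mitochondrial protein import, and MIF (0.637), a cytokine. LSM7 was 22nd and SNRPC 70th in that order. In gene-rich cells the rho of the 5 genes was 0.561, 0.635, 0.463, 0.456 and 0.401, where SNRPG had 0.490. These 5 genes had r of -0.152 to -0.210 with the T/R ratio and long minus short differences of -0.46 to -0.99. They were picked for likeness to SNRPD2 in these same cells, so these values are no separate result. Among the 8 Sm core genes the median rho over 28 pairs was 0.228, with 0.165 in gene-rich and 0.208 in gene-poor cells, beside 0.115, 0.0126 and 0.0750 for pairs of all abundant genes. The highest pair over all cells was SNRPB with SNRPN, at 0.689, with 0.694 in gene-poor but 0.271 in gene-rich cells, where SNRPD2 with SNRPG was highest at 0.490. SNRPD2 with SNRPD3 had -0.0127 over all cells.

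Other splicing gene lists, given as counts beside the spliceosome genes, had median r above 0 as deposited, though not throughout in gene-rich cells or with cells divided by the median ratio. Their counts below 0 stand against 37.7% of abundant genes. Of 17 genes of the SMN complex and Sm ring assembly, 7 had r below 0, with 1 at -0.2 or lower (-0.251) and 2 at 0.2 or higher. The median of the 17 was 0.0724. Of 53 further snRNP and spliceosome genes 20 were below 0, none at -0.2 or lower and 5 at 0.2 or higher, with a median of 0.0294. Of 14 SR protein genes 2 were below 0 (median 0.108) and of 23 hnRNP genes 4 were (median 0.0968). In gene-rich cells the counts below 0 in these 4 lists were 8, 30, 7 and 6, with medians of 0.0451, -0.0102, 0.0527 and 0.0641, where 44.2% of abundant genes were below 0. With cells divided by the median ratio they were 7, 31, 7 and 9, where 53.0% were. Long minus short had medians of 1.98, 1.37, 1.58 and 1.56, beside 1.40 over abundant genes, and in gene-rich cells -0.26, -0.05, 0.07 and 0.31, beside 0.04. The most abundant genes of each were STRAP (r 0.0582) and CLNS1A (0.139), which act in Sm ring assembly, U2AF1 (0.0970), which reads the 3′ splice site, and NHP2L1 (-0.120), which binds U4 snRNA, the SR genes SRSF7 (0.173) and SRSF2 (0.0347), and HNRNPA1 (0.0767) and HNRNPA2B1 (0.0415). In gene-rich cells NHP2L1 had r of -0.431, and the other genes just named lay between -0.0441 and 0.165. Of 77 cytosolic ribosomal protein genes, 50 had r below 0, where 37.7% of abundant genes did, and the median was -0.0379. At -0.2 or lower there were 5 of them, where 2.09% of abundant genes were. In gene-rich cells 31 of the 77 were below 0 and the median was 0.0297, and with cells divided by the median ratio 71 were. RPS27 and RPL5, the most abundant of these, had r of -0.161 and -0.0320.

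The spliceosome genes were compared in sequence upstream of their start sites, in windows of 250 bases from RefSeq on GRCh38.p14. A window was used for 40 of the 50 genes. The motif CCGGAA, searched on both strands, holds the GGAA core recognized by ETS family factors. It occurred in a window of 22 of the 40 genes (55.0%), beside 17.2% of 27305 genes. Those 27305 genes were not limited to abundant ones. The share among abundant genes was not counted, so the value does not set the spliceosome genes apart. GGAA without CC before it was not counted. On either strand, CCAAT occurred in 17 (42.5%), beside 37.0%, and TATAAA in 2 (5.00%), beside 13.0%. The windows below are those of the 2 genes with the lowest and the 2 with the highest r among genes with a window, shown to compare genes that differed in their relation to telomere length, each read in the direction of its gene with the motif, here TTCCGG on the printed strand, in capitals. For SNRPD2 it is 1 of 3 windows, and its other 2 hold no such motif.
SNRPD2 (chr19:45692317-45692566, minus strand): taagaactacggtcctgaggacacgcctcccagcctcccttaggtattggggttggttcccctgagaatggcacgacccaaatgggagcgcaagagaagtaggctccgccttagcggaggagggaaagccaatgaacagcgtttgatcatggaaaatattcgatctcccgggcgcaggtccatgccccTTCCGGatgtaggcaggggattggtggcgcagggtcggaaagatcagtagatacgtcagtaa
SNRPF (chr12:95858702-95858951, plus strand): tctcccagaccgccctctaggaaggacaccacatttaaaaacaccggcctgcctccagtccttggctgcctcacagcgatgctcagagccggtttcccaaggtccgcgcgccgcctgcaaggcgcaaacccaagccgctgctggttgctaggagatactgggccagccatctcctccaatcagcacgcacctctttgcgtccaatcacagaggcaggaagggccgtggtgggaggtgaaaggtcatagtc
SNRPA1 (chr15:101295249-101295498, minus strand): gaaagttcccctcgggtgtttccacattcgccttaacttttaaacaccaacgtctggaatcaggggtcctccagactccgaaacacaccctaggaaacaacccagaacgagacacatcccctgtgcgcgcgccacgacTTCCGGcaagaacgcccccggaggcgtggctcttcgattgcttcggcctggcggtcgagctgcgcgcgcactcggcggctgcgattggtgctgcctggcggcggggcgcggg
LSM2 (chr6:31806967-31807216, minus strand): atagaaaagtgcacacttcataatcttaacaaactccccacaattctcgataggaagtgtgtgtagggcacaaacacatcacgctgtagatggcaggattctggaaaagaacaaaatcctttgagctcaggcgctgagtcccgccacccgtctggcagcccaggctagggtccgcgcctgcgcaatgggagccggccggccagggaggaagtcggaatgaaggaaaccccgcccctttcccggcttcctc
SNRPD2 and SNRPA1, with r of -0.289 and 0.336, both hold the motif, while SNRPF and LSM2, with -0.204 and 0.317, hold none, so it did not separate these genes by sign. A match describes these letters in this window only.

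Gene length went little with the relation. Over the 44 abundant ones, rho of annotated transcript length with r was 0.186, beside 0.0814 over the 5657 of 6213 genes with a length. Of the 50 genes, 13 shared no window of 50 bases with the transcript of another gene and 16 shared more than 10%, so the levels of the latter may depend on how reads with several matches were counted.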

How the data were processed

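Polyadenylated RNA of 121 single WA26 cells was amplified after Smart-seq2 and sequenced as 50-bp single-end reads. The authors mapped reads to hg19 with TopHat and deposited TPM values. The methods name HTSeq counts and size factors, while the submitters' processing notes name TopHat2 and RSEM; each cell sums to 979828 to 997050 over 25610 genes, as TPM would. TPM keeps no read number, so the depth behind each value is unknown from the table, and 1 incomplete last line was not read. T/R ratios were those listed by the study and matched by cell title.

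Groups came from the labels. Cells are not replicates, so no p-value or SE was computed: differences of mean log2(TPM + 1), which understate low genes, with SD, percentages of long-short pairs (ties count equally for both) and Pearson's r of TPM with the T/R ratio, with Spearman's rho, were used. A difference of 1 or more, or r of 0.2 or more, in either direction counted as past the limit. Intervals of detection (TPM above 1) are exact (Clopper-Pearson). Full values are given for SNRPD2, the Sm core, genes past the limits of r, the 5 highest and 5 lowest differences among abundant genes (mean TPM of 10 or more), the 5 genes most like SNRPD2 and the 2 most abundant genes of each list. LSM11, SNRPC, LSM3 and further genes were named after their values were seen. The spliceosome genes, roles, lists and the limit of 8000 were chosen with earlier results of these data known. Alternatives were other pseudocounts, medians, ranks, a log scale, partial correlation, sets of cells, the 40 longest against the 40 shortest telomere cells and other scalings. Transcripts, positions and shared windows are from GENCODE on GRCh37. A spliceosome gene that enters the counts is not reported or plotted by name here. Calculations were tested on simulated data. Scripts ran in Python 3.11.15 (pandas 2.3.3, numpy 2.4.6, scipy 1.17.1), with plots by matplotlib 3.10.9.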

Additional observations from a re-analysis of the deposited data

How the results depend on the processing

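Correlations were read against shifts of 0.1, log2 differences of 0.5, shares of 5 points and counts of 1.5 times. The r of SNRPD2 and the median r of the spliceosome genes stayed within their limit under all 9 and all 10 alternatives, between -0.353 and -0.205 and between 0.00553 and 0.0808. Restricting to cells with more than 8000 detected genes moved the number of genes with r below 0 from 14 to 24, the median long minus short difference from 1.05 to 0.057, the number higher in long from 45 to 29, the SNRPD2 difference from -0.74 to 0.33 and the SNRPD2 share difference from -12.1 to 2.40 points, a reversal; 3 short telomere cells stand behind the differences. Dividing by the median ratio gave 24 genes with r below 0, a median difference of 0.42, a summed Sm core difference of -1.03 (from -0.26) and an SNRPD2 difference of -1.50. The 40 cells with the longest against the 40 with the shortest telomeres gave a median of 0.32 and a share difference of -5.90, a pseudocount of 10 gave a median of 0.54, and group medians gave a share difference of -4.59. The cause of these shifts was not tested. TPM values do not carry the depth of a cell, and with 1 sample per group no alternative shows whether a difference would recur in another culture. No paired analysis was possible because the results come from no test, and the numbers that cells share across groups only name cells.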
